A study of Mus musculus with 6 samples.

Results

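Messenger RNA was counted for 10 genes whose products are secreted into saliva, chiefly by the submandibular and sublingual glands of the mouse: Spt1, Mucl1, Dcpp1, Dcpp2, Dcpp3, Smgc, Muc19, Smr2, Pip and Lpo. They were selected by gene symbol from the 24054 rows of the count table, with results of the same comparison already known, so their difference between the groups is given as a description, with no p-value. Of the 10, 9 passed the filter on low counts and were among the 14044 genes tested, and Smr2 did not. Whole salivary gland RNA was compared between control mice and K5-RANKL mice, with 3 libraries in each group, and each library came from glands pooled from 5 mice. K5-RANKL mice carried K5-rtTA and TetO-RANKL: the keratin 5 promoter, active in basal-type epithelial cells, expresses rtTA, which in the presence of doxycycline turns on a transgene for RANKL, a cytokine of the TNF family. Controls carried 1 transgene only, and mice of both groups took doxycycline in their food and drinking water for 2 weeks, starting when they were 9 weeks old. The sources used here do not say which transgene the controls carried, or the strain, the sex and the glands that were taken. Replicates are numbered in order of deposition, and p-values measure the spread between these pools.

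Saliva gets its proteins mainly from acinar cells, which are serous, mucous or mixed, and in rodents also from the granular ducts of the submandibular gland. Mucous acini secrete large glycosylated mucins that bind water and coat the mouth, while serous cells and the demilunes that cap mucous acini secrete smaller proteins and antimicrobial enzymes. Several of these products are encoded by tandem copies of one ancestral gene, so closely related transcripts lie side by side in the genome.

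Control libraries held 13875951 to 17921815 counts, and K5-RANKL libraries 14149734 to 16412579. The induced gene, Tnfsf11, which encodes RANKL, averaged 2.19 CPM in controls against 609.4 in K5-RANKL mice. CPM values are counts relative to a library size scaled by TMM, the trimmed mean of M values, and the scaling matters here. Its factors were 0.677 to 0.735 in controls and 1.32 to 1.47 in K5-RANKL, so a share of all counts and a CPM value can differ between groups by different amounts. Control 1 stood apart from the other controls: the chi-square statistic per gene was 37.0 and 38.3 against controls 2 and 3, and 6.26 between controls 2 and 3. In K5-RANKL it was 23.1 between libraries 1 and 2, 12.5 between 1 and 3 and 15.5 between 2 and 3. That statistic is an average over genes and grows with counts, so the most abundant genes, Spt1 among them, weigh most in it.

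Together the 10 genes took 39.0%, 32.4% and 31.9% of all counts in the control libraries and 18.7%, 24.6% and 20.5% in the K5-RANKL libraries, a mean of 34.4% ± 3.95 (SD, n = 3) against 21.3% ± 3.03 (SD, n = 3). Spt1 alone made up 89.5% ± 0.608 (SD, n = 3) of the counts of the 10 genes in controls and 75.1% ± 0.675 (SD, n = 3) in K5-RANKL. With Spt1 set aside, the other genes took 3.61% ± 0.226 (SD, n = 3) of control libraries and a larger 5.28% ± 0.711 (SD, n = 3) of K5-RANKL libraries. That rise in the remainder was Mucl1: without Spt1 and Mucl1 the share was 3.59% ± 0.205 (SD, n = 3) in controls and 1.22% ± 0.156 (SD, n = 3) in K5-RANKL. Leaving out control 1 gave a mean control share of 32.1% for all 10 genes.

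**Figure D1:**
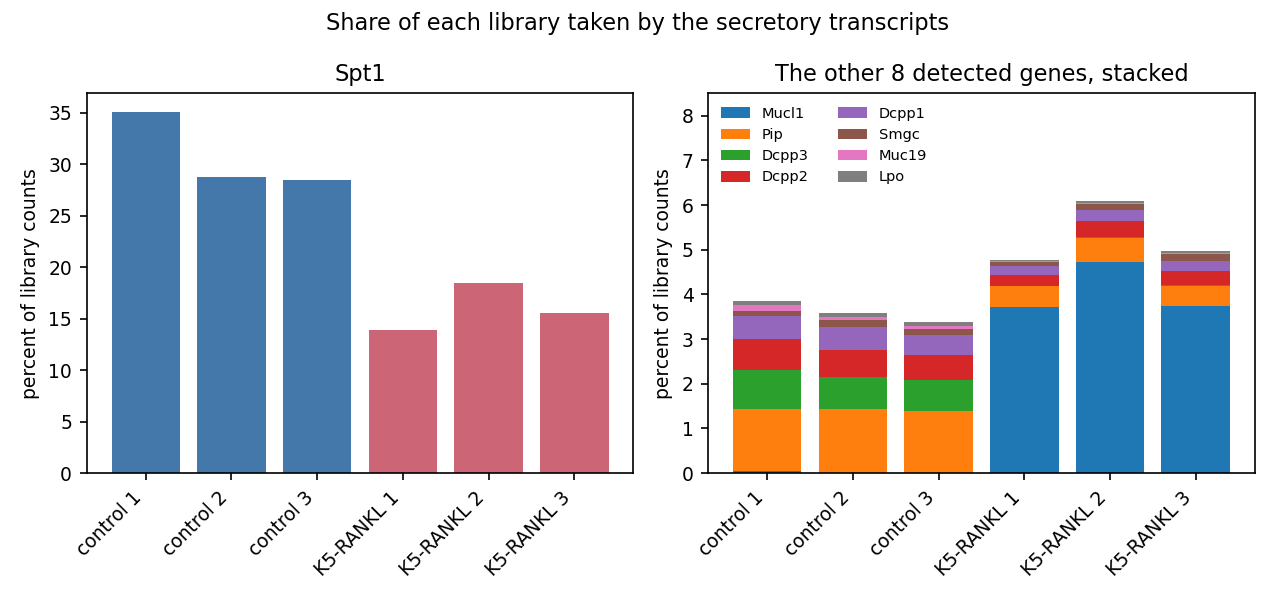
Percent of all counts of each library taken by Spt1 (left) and, stacked, by the other 8 genes that were detected above trace level (right), for 3 control and 3 K5-RANKL libraries. Each bar is 1 library. Spt1 filled 28.5% to 35.1% of control libraries and 13.9% to 18.5% of K5-RANKL libraries, and Mucl1 is visible only in the K5-RANKL bars.

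On the TMM scale, 8 of the 9 genes that passed the filter were lower in all 3 K5-RANKL libraries than in any control, and Mucl1 was higher. All 9 were called at an adjusted p under 0.05 in edgeR's quasi-likelihood test; over all 14044 genes tested 66.2% were called, 34.2% higher and 32.1% lower in K5-RANKL. Because the comparison chose the genes, nothing is read from that count. Their median log2 fold change was -2.11, beside 0.01 over all genes tested. In whole-gland RNA, fewer cells of a type and less RNA per cell cannot be told apart.

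**Figure D2:**
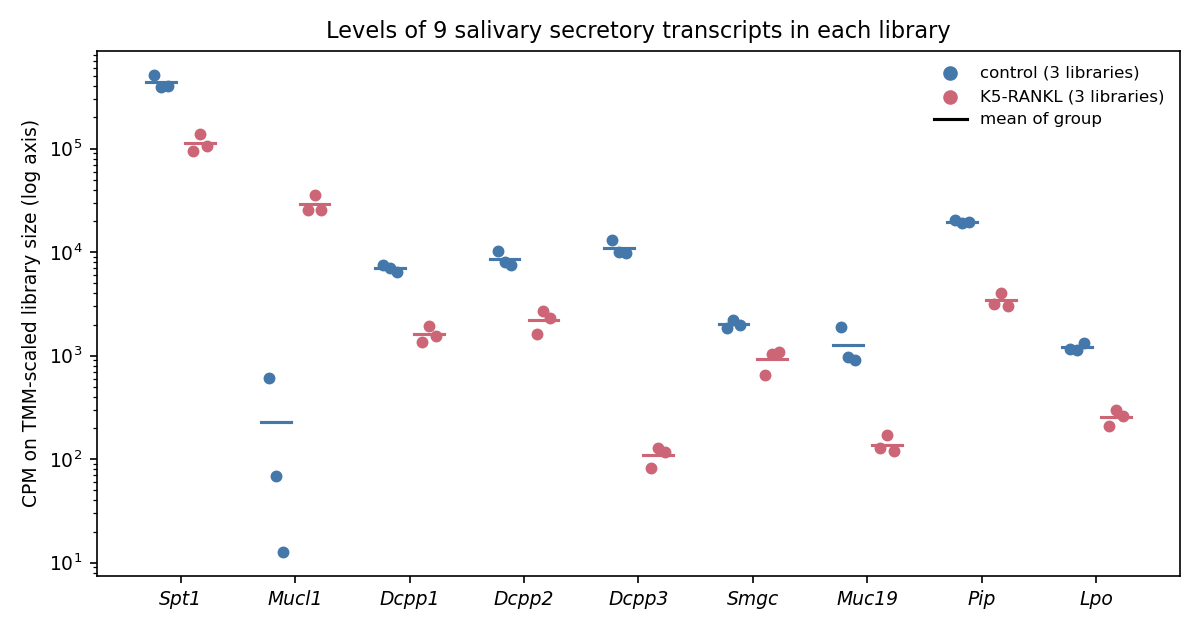
CPM on the TMM-scaled library size (log axis) of the 9 genes in each library; dots are libraries and bars are group means. Groups did not overlap for any of the 9, and Mucl1 is the gene with its K5-RANKL dots on top.

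Spt1 encodes salivary protein 1, a small secreted protein that RefSeq names Mucl2 (Entrez 20770), and lies at chr15:103895855-103899312 on the minus strand of GRCm38. The deposited counts give no Entrez identifier for this gene, so Spt1 was matched to Mucl2 through a RefSeq synonym. It had the most counts of any gene in all 6 libraries. Its CPM were 518706, 392011 and 399304 in controls and 94572, 139848 and 107119 in K5-RANKL. Control 1 was the highest library and K5-RANKL 2 the highest of its group, and the groups were well apart. The log2 fold change was -1.94 (SE 0.20), a level 3.84-fold lower. As a share of counts it went from 30.8% ± 3.74 (SD, n = 3) to 16.0% ± 2.33 (SD, n = 3), a smaller difference than in TMM-scaled CPM.

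Mucl1, a mucin-like relative of Spt1 (Entrez 20771), lies 140 kb away at chr15:103751923-103755498, also on the minus strand. RefSeq lists it as a transcribed pseudogene and GENCODE M21 as protein coding. It went the opposite way to Spt1, from control levels of 607.6, 68.8 and 12.7 CPM to 25298, 35730 and 25794 in K5-RANKL. In K5-RANKL libraries it had the second most counts of all genes, behind Spt1, whereas by counts its rank in the 3 controls was 65, 1593 and 7354. The 3 controls differed among themselves far more than the K5-RANKL libraries did, with 6597, 701 and 163 counts against 609961, 668341 and 554010. The log2 fold change was 6.98 (SE 1.83), or 126-fold, and 58 of the genes tested had a higher one. Without control 1 the value was 9.48; without control 2, or without K5-RANKL 1, 2 or 3, it was 6.54, 7.06, 6.79 and 7.05 and Mucl1 was no longer called.

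The relation between these neighbours bears on whether their reads can be told apart, so the start of both coding sequences is shown, from the ATG, with the 8 bases that differ between them in capitals (GENCODE M21 transcripts, GRCm38).
Spt1: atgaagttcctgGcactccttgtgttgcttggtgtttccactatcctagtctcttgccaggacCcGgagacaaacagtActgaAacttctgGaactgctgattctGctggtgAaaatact
Mucl1: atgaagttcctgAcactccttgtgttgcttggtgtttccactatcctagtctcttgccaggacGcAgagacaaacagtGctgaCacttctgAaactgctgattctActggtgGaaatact
Over these 120 bases the pair is almost the same, but over the whole coding sequence, 417 bases in Spt1 and 528 in Mucl1, identity was 65.4% across 529 aligned columns, of which 113 were gaps, and 83.2% without gaps. Of all 50-base stretches of the Mucl1 transcript, 99.9% occurred in no transcript of another gene, and for Spt1 the figure was 99.8%. The sources used here give neither read length nor the handling of reads that match several places. Mucl1 took 0.117%, 0.0175% and 0.00319% of the summed counts of the pair in controls and 21.1%, 20.4% and 19.4% in K5-RANKL. Per kilobase of transcript, Mucl1 reached 38180 ± 7764 CPM (SD, n = 3) in K5-RANKL, beside 178163 ± 36581 (SD, n = 3) for Spt1 in the same libraries.

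Dcpp1, Dcpp2 and Dcpp3 encode demilune cell and parotid proteins, small secreted lectin-like proteins of serous demilunes. They lie in tandem on the plus strand of chromosome 17, at chr17:23880669-23882853, chr17:23898722-23900788 and chr17:23917419-23919441, within 38.6 kb. Dcpp1 (Entrez 13184) had 7441, 6987 and 6447 CPM in controls and 1355, 1950 and 1546 in K5-RANKL, a log2 fold change of -2.11 (SE 0.14). Dcpp2 (Entrez 630537) had 10348, 8029 and 7583 CPM in controls and 1636, 2705 and 2288 in K5-RANKL, a log2 fold change of -1.97 (SE 0.18). These neighbours moved by similar amounts, 4.30-fold and 3.92-fold lower.

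Dcpp3 (Entrez 620253) did not follow them. Its CPM were 12962, 10018 and 9855 in controls and 82.7, 129 and 118 in K5-RANKL, and by counts 140729, 102123 and 126047 against 1994, 2421 and 2533. The log2 fold change was -6.64 (SE 0.21), a level 99.5-fold lower, and 9 of the genes tested had a lower one. Of the 3 copies Dcpp3 therefore went from the one with the most counts to the one with the fewest. Its share of the summed Dcpp counts was 41.1% ± 1.07 (SD, n = 3) in controls and 2.79% ± 0.165 (SD, n = 3) in K5-RANKL, while Dcpp2 kept 55.2% ± 2.56 (SD, n = 3) and 57.5% ± 2.54 (SD, n = 3) of the counts of Dcpp1 and Dcpp2. These shares are taken within a library and do not depend on its scaling.

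**Figure D3:**
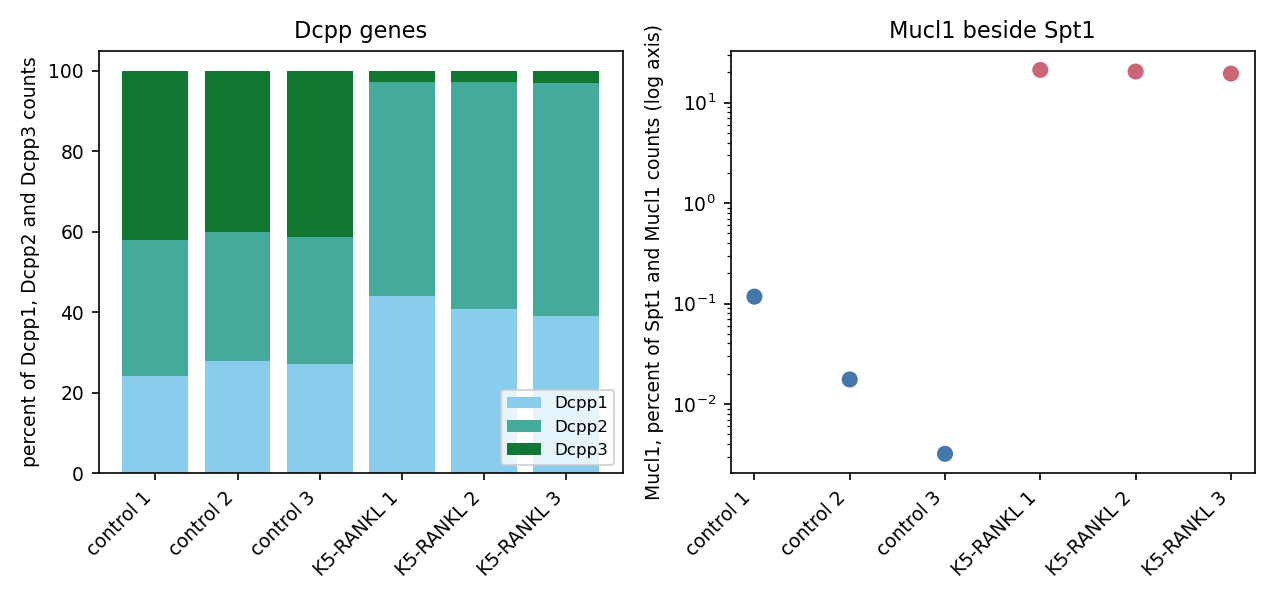
Left: percent of the summed counts of Dcpp1, Dcpp2 and Dcpp3 that each gene took, 1 stacked bar per library. Right: Mucl1 as a percent of the summed counts of Spt1 and Mucl1 (log axis), 1 dot per library. Dcpp3 filled 40.0% to 42.2% of its bar in controls and 2.69% to 2.98% in K5-RANKL, and the Mucl1 dots of K5-RANKL sit near 20%.

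The Dcpp copies are nearly identical, which limits how surely reads can be assigned. Their coding sequences were 93.2% to 95.3% identical in pairs, with 45 of 516 aligned columns not shared by all 3. The 150-base stretch with the most differing columns is shown from each coding sequence, with the 29 differing columns in capitals (GENCODE M21, GRCm38; bases 258 to 407 of Dcpp1 and Dcpp2, and 255 to 404 of Dcpp3).
Dcpp1: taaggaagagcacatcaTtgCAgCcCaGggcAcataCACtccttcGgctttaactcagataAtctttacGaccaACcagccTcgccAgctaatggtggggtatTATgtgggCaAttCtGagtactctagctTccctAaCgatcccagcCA
Dcpp2: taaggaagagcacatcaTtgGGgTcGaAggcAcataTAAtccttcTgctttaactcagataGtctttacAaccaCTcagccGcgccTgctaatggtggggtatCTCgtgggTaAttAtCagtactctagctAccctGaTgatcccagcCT
Dcpp3: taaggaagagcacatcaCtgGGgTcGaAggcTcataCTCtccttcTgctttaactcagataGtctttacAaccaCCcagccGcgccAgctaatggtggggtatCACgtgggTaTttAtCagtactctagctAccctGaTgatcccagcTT
Over the whole coding alignment Dcpp1 alone differed at 21 columns, Dcpp2 alone at 10 and Dcpp3 alone at 13. Stretches of 50 bases found in no other gene's transcripts made up 53.5% of the Dcpp1 transcript, 69.4% of Dcpp2 and 63.5% of Dcpp3. With 100-base stretches the figures were 80.1%, 90.6% and 79.6%. The sources used here do not say how the authors' counting split shared reads, and GENCODE's Dcpp2 gene also spans Dcpp1, so the separate levels are uncertain. The summed Dcpp share of counts was 1.88% ± 0.191 (SD, n = 3) in controls and 0.552% ± 0.0922 (SD, n = 3) in K5-RANKL. That sum does not depend on how shared reads were divided among the 3, provided such reads were counted. If they were dropped, it also depends on how much of each copy is unique.

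Since 1 of 3 tandem copies behaved differently, the 250 bases before the start used in the RefSeq promoter table are shown, with the columns that differ among the 3 windows in capitals (GRCm38.p6, plus strand). A base is also in capitals where another window has no base in that column. The capitals that open the Dcpp1 and Dcpp3 windows are of this kind, because the windows begin at different places in the alignment, and they are not base differences. For Dcpp1 and Dcpp3 that start lies inside the RefSeq gene span given above, at the GENCODE gene starts of 23880876 and 23917458, so these windows run into the RefSeq span; for Dcpp2 it is the RefSeq gene start.
Dcpp1, chr17:23880626-23880875: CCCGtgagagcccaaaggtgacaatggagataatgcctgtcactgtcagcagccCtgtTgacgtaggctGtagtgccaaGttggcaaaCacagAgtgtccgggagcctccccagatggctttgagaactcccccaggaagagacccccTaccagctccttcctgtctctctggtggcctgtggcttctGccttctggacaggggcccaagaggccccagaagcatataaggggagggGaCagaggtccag
Dcpp2, chr17:23898472-23898721: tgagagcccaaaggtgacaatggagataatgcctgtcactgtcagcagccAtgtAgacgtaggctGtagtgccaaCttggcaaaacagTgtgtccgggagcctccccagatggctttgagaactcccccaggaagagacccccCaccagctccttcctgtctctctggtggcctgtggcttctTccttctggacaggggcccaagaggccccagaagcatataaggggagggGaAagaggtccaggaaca
Dcpp3, chr17:23917208-23917457: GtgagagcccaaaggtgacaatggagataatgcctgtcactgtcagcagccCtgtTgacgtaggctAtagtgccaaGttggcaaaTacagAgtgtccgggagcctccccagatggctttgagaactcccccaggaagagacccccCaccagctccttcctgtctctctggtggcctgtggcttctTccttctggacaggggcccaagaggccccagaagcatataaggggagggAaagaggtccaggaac
Apart from their ends, the 3 windows differ by scattered single bases and share long identical runs. Over the longer windows of the RefSeq table, which also take in the 50 bases after the start, identity was 93.8% for Dcpp1 and Dcpp2, 95.1% for Dcpp1 and Dcpp3 and 96.4% for Dcpp2 and Dcpp3. Without gap columns it was 96.9%, 97.6% and 97.7% in the same order, with 9, 7 and 7 mismatches. By either measure the Dcpp3 window was closer to each of the others than those were to each other, by a few bases only. Each holds TATAA, the core of a TATA box, beginning at -26, -31 and -29 from the table's start in Dcpp1, Dcpp2 and Dcpp3.

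Of the 8 genes with a window in that table, 6 held TATAA on either strand, against 24.9% of all 32851 windows. Dcpp1, Dcpp2 and Dcpp3 are among the 6, and their windows are near copies of each other. Spt1 and Lpo did not hold TATAA. The search took these letters exactly, and the Spt1 window holds TATATAG, which it does not match. Of the other motifs searched on both strands, CAGCTG, an E-box, was in 0 of 8 windows (16.3% of all), GGAAGT, an ETS core, in 1 of 8 (23.8% of all) and ACAAAG, a SOX core, in 1 of 8 (18.7% of all). No match overlapped a match of another motif, and a match is only a match of letters.

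Smgc and Muc19 share a locus on the plus strand of chromosome 15. Smgc (Entrez 223809, chr15:91838328-91861435) encodes submandibular gland protein C, a product best known from the glands of newborn mice, and Muc19 (Entrez 239611, placed by GENCODE at chr15:91838326-91934555) encodes the gel-forming mucin of the sublingual gland. Smgc had 1864, 2226 and 1984 CPM in controls and 643.3, 1046 and 1095 in K5-RANKL, a log2 fold change of -1.13 (SE 0.19). It changed least of the 9 genes, and its share of counts overlapped between groups: 0.126%, 0.164% and 0.142% in controls and 0.0945%, 0.138% and 0.159% in K5-RANKL. By library totals the log2 fold change was -0.14, and Smgc was not called.

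Muc19 had 1906, 973.3 and 915.9 CPM in controls and 127, 170 and 119 in K5-RANKL, a log2 fold change of -3.19 (SE 0.40), or 9.13-fold lower. Control 1 held about as much again as either other control, and without it the log2 fold change was -2.77. Muc19 took 50.6%, 30.4% and 31.6% of the summed counts of the pair in controls and 16.5%, 13.9% and 9.80% in K5-RANKL. The mucin transcript was therefore reduced by more than the Smgc transcript that starts at the same place. Their exons overlap at the start, and GENCODE marks the Muc19 model as affected by an error in the reference genome, so no level per length is given for Muc19.

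Smr2 (Entrez 20600, chr5:88086556-88109053) encodes a submaxillary gland androgen-regulated protein. It had 2 counts in control 1 and 0 in the other 5 libraries, where 0 counts allow up to 3 counts, or 0.124 to 0.294 CPM, for counting error only. No fold change is given, and Smr2 was not detectable beyond that floor in these glands.

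Pip and Lpo act in the defence of mucosal surfaces. Pip (Entrez 18716, chr6:41847549-41852065) encodes prolactin-induced protein, which binds bacteria and immunoglobulin. Its CPM were 20453, 19300 and 19439 in controls and 3156, 4069 and 3050 in K5-RANKL, a log2 fold change of -2.53 (SE 0.14), or 5.76-fold lower. The 3 controls lay close together, and Pip took 1.40% ± 0.0184 (SD, n = 3) of control counts and 0.481% ± 0.0501 (SD, n = 3) of K5-RANKL counts. Lpo (Entrez 76113, chr11:87806428-87826114) encodes lactoperoxidase, which uses hydrogen peroxide to oxidise thiocyanate into an antibacterial agent. It had 1171, 1144 and 1312 CPM in controls and 209, 296 and 259 in K5-RANKL, a log2 fold change of -2.25 (SE 0.12), or 4.75-fold lower.

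Per kilobase of transcript the control means ran from 683371 CPM for Spt1 through 33556 for Pip, 17942 for Dcpp3, 14692 for Dcpp2 and 11278 for Dcpp1 to 680.1 for Smgc, 413 for Lpo and 303 for Mucl1. In K5-RANKL the order was Spt1, Mucl1, Pip (5825), Dcpp2 (3752), Dcpp1 (2620), Smgc (312), Dcpp3 (180) and Lpo (87.0). By these means Mucl1 moved from the bottom of the order to the second place and Dcpp3 from the third place to the last but one. In control 1, however, Mucl1 stood at 802 CPM per kilobase, above Smgc (626) and Lpo (400). Among neighbours in these orders, library values overlapped for Dcpp3 and Dcpp2 and for Mucl1 with Lpo in controls, and for Dcpp2 and Dcpp1 in K5-RANKL.

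Within each group the 9 genes tended to shift together from library to library, and the same shares over all genes tested were not computed. Across the 9 genes, K5-RANKL 2 was above the mean of its group's other libraries for 9 of 9 and K5-RANKL 1 for 0 of 9, with median log2 deviations of 0.43 and -0.37. Control 1 was above the other controls for 7 of 9, with a median of 0.38. The summed level of the basal and squamous markers ran the other way in K5-RANKL, at 705.6, 323.8 and 649.7 CPM in libraries 1, 2 and 3. Krt6a of that list did not, at 0.912, 1.71 and 0.838 CPM. Summed fibroblast, duct and endothelial markers were also lowest in K5-RANKL 2 of its group. Immune, lymph node, adipocyte and skeletal muscle markers were highest there, and myoepithelial markers were in between. The part of these shifts in the results was not tested.

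Library totals in place of TMM moved the median over all genes tested, as a log2 fold change, from 0.01 to 1.01, and the fold changes of the secretory genes moved with it. On that scale Spt1 stood at -0.95, Dcpp1 at -1.12, Dcpp2 at -0.98, Dcpp3 at -5.64, Pip at -1.54, Lpo at -1.26, Muc19 at -2.19 and Mucl1 at 8.01. Each kept its direction. TMM factors computed without the 10 genes left Spt1 at -1.94 and Mucl1 at 6.98.

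**Figure D4:**
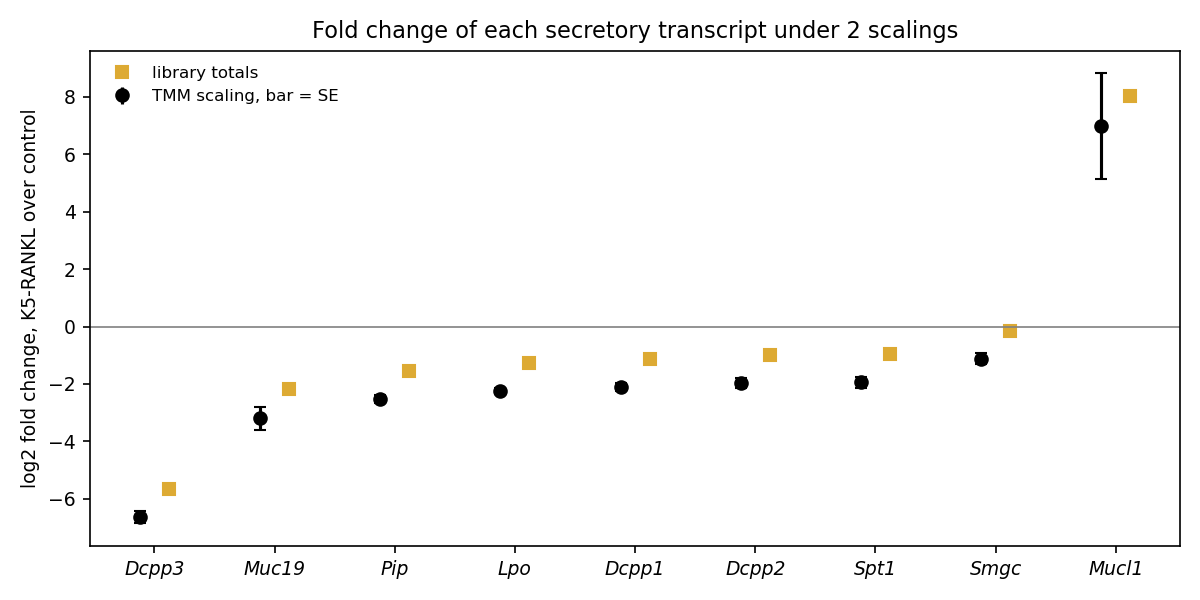
Log2 fold change, K5-RANKL over control, of the 9 genes under TMM scaling (circles, bar = SE) and under library totals alone (squares). Squares lie about 1 log2 unit above circles; Dcpp3 is lowest and Mucl1 highest under both.

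Related genes are counted in lists that were chosen with earlier results of these data known. Among other mucins, 5 of 11 listed genes could be tested: 3 rose, 1 fell and 1 was not called, with a median log2 fold change of 0.62. Muc1, a membrane-bound mucin of epithelial surfaces, rose from 1.66, 1.77 and 2.11 CPM to 26.6, 21.7 and 24.9 (log2 fold change 3.71, SE 0.15; edgeR's quasi-likelihood test, adjusted p = 1.17e-12). Muc15, also membrane-bound, rose by 3.71 log2 units (SE 0.41; edgeR adjusted p = 4.1e-06) but stayed below 9 CPM. Prol1, which encodes a mucin of the mouse submandibular gland, fell from 71130, 59931 and 65087 CPM to 15503, 23341 and 18454 (log2 fold change -1.78, SE 0.17; edgeR adjusted p = 5.25e-08). The 3 genes of this list that rose encode membrane-bound mucins and had no more than 26.6 CPM in any library. Muc5b, Muc5ac, Muc2, Muc4 and Muc6 were at or near 0 in both groups.

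Of 9 companions of mucous cells, 3 could be tested. Fcgbp, a large protein that binds mucins in mucus, rose from 8.29, 7.36 and 6.33 CPM to 776.9, 572.2 and 706.5 (log2 fold change 6.55, SE 0.14; edgeR adjusted p = 8.17e-14). Spdef, a transcription factor of mucous and goblet cells, fell from 98.6, 88.5 and 89.4 CPM to 20.7, 26.9 and 17.3 (log2 fold change -2.10, SE 0.13; edgeR adjusted p = 8.21e-08). Agr2, which folds mucins, was not called (log2 fold change -0.68; edgeR adjusted p = 0.0844) and stood at 0.32 by library totals. The list did not move one way.

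Among peroxidases and enzymes that supply peroxide, 7 of 11 could be tested: 4 rose, 2 fell and 1 was not called, with a median of 1.88. Duox2, the epithelial oxidase that makes hydrogen peroxide for Lpo at mucosal surfaces, fell from 48.5, 58.8 and 54.6 CPM to 12.1, 18.0 and 17.3 (log2 fold change -1.78, SE 0.14; edgeR adjusted p = 2.21e-07). Its maturation factor Duoxa2 fell by 1.85 log2 units (SE 0.19; edgeR adjusted p = 5.98e-06). Both were lower beside Lpo. The other Duox pair of the list, Duox1 and Duoxa1, singled out after their values were seen, went the other way. They rose by 2.66 and 1.88 log2 units (SE 0.35 and 0.31; edgeR adjusted p = 3.5e-06 and 3.5e-05), to K5-RANKL means of only 2.09 and 2.55 CPM. Cybb, the oxidase of phagocytes, rose from 22.3, 24.8 and 26.9 CPM to 93.5, 98.7 and 99.5 (log2 fold change 1.98, SE 0.08; edgeR adjusted p = 2.09e-12), and Nox4 rose by 2.50 (SE 0.29; edgeR adjusted p = 8.68e-07) from under 1 CPM.

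Parotid-type products were a further secretory list: all 6 tested of 8 fell, with a median of -6.14. They took 8.10%, 12.4% and 12.6% of control counts and 1.67%, 1.70% and 1.37% of K5-RANKL counts. Car6, a secreted carbonic anhydrase, fell by 2.29 log2 units (SE 0.14; edgeR adjusted p = 3.07e-10), and the proline-rich protein genes Prpmp5 and Prb1 fell by 6.90 and 6.03 (SE 0.69 and 0.72; edgeR adjusted p = 0.000936 and 0.00164). Car6 made up 8780, 10772.5 and 9001 of the list's summed 11400, 12887 and 9442 CPM in K5-RANKL, so the list's share there mostly follows Car6. Bpifa2, singled out after its values were seen, went from 57118, 95077 and 105907 CPM in controls to 1703, 1388 and 316 in K5-RANKL. Control 1 was lowest of the controls for the sum of this list and highest for Car6, Spt1, Mucl1 and Muc19. Of granular duct products, 9 of 14 tested fell, 0 rose and 5 were not called, with a median of -0.69. Klk1, tissue kallikrein, fell by 1.56 (SE 0.14; edgeR adjusted p = 2.71e-08), Klk1b11 by 1.23 (SE 0.10; edgeR adjusted p = 6.25e-08) and Klk1b27 by 0.89 (SE 0.11; edgeR adjusted p = 8.86e-07). By library totals that list's median was 0.30, with 6 higher and 2 lower. On that scale Klk1 stood at -0.57, Klk1b11 at -0.23 and Klk1b27 at 0.10, and Klk1b11 and Klk1b27 were not called (edgeR adjusted p = 0.0705 and 0.433). Klk1b genes are close copies whose reads may be shared.

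Of 10 genes for acinar transcription factors and fluid secretion, 9 fell and 1, Chrm1, was not called, with a median of -1.73. Creb3l1, a factor of the secretory pathway, fell by 1.89 (SE 0.10; edgeR adjusted p = 1.11e-10), Sox10, a factor of acinar and intercalated duct cells, by 1.18 (SE 0.08; edgeR adjusted p = 4.9e-10), and Chrm3, the muscarinic receptor that triggers fluid secretion, by 1.57 (SE 0.11; edgeR adjusted p = 6.58e-10). By library totals Sox10 stood at -0.18 and was not called (edgeR adjusted p = 0.0787), Xbp1 stood at 0.13 and was not called (edgeR adjusted p = 0.175), and Chrm1 was called higher at 0.88 (edgeR adjusted p = 1.66e-05).

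**Figure D5:**
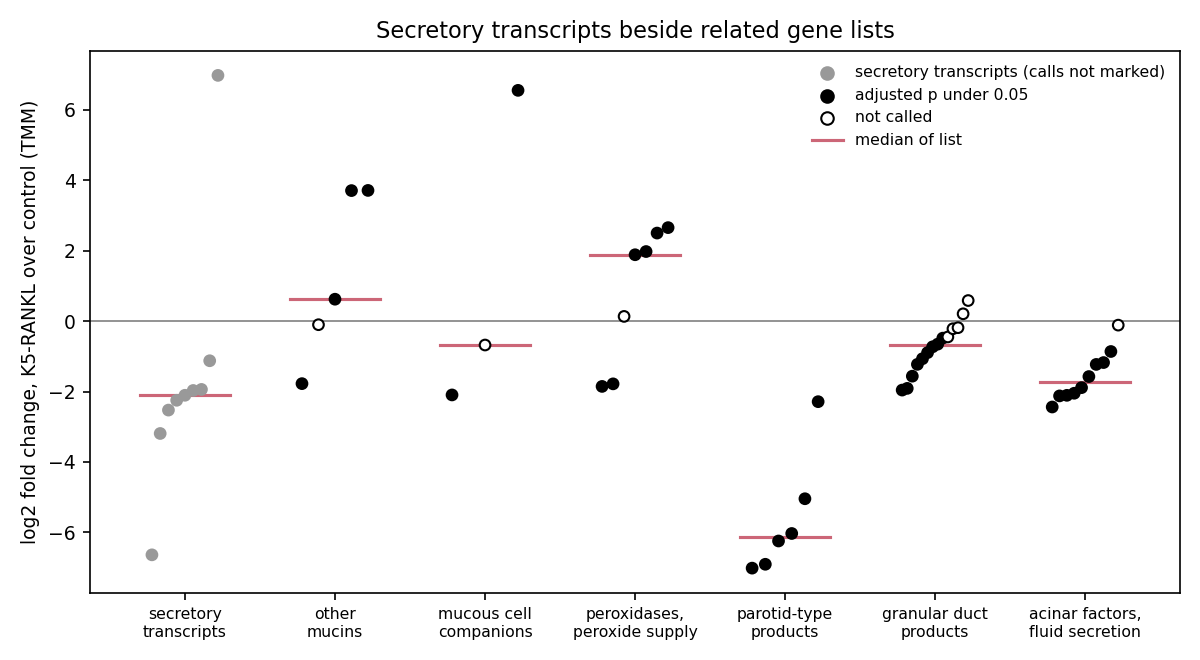
Log2 fold change, K5-RANKL over control under TMM scaling, of the 9 secretory genes (grey, calls not marked) and of each tested gene of 6 related lists; filled dots passed an adjusted p of 0.05, open dots did not, and red bars are medians. Medians were -2.11 for the secretory genes, -6.14 for parotid-type products, -0.69 for granular duct products and -1.73 for acinar factors.

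The 5 genes outside the set, with at least 100 CPM in controls, whose pattern over the 6 libraries was most like the median of the 9 were Aqp5, Prom2, Ppp1r1b, Scgb2b27 and St3gal1. Likeness was the root mean square distance of log2 CPM, each gene centred on its control mean, and ran from 0.108 to 0.151. Aqp5, the water channel of acinar cells, went from a mean of 484 to 112 CPM and Scgb2b27, a secretoglobin, from 53154 to 13008.

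Genes next to the secretory loci moved in both directions. Of 33 neighbours, taken as the 3 nearest on each side, 14 could be tested: 5 rose, 7 fell and 2 were not called. Over all genes tested, 34.2% were called higher and 32.1% lower, so movement in both directions is not particular to these neighbours. By library totals 7 neighbours were higher and 5 lower. Next to Smgc and Muc19, Slc2a13 fell by 1.75 log2 units (SE 0.13; edgeR adjusted p = 1.82e-09) and Lrrk2 rose by 1.04 (SE 0.13; edgeR adjusted p = 1.88e-06). Near Spt1 and Mucl1, Pde1b rose by 1.89 (SE 0.18; edgeR adjusted p = 5.68e-08) and Glycam1, also a lymph node gene, by 1.33 (SE 0.11; edgeR adjusted p = 3.39e-07), while Mks1 near Lpo fell by 1.57 (SE 0.14; edgeR adjusted p = 2.9e-08). Smr3a, a neighbour of Smr2 singled out after its values were seen, was abundant where Smr2 was not, with 17764, 29706 and 27843 CPM in controls and 463, 357 and 44.1 in K5-RANKL.

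Markers of other cells also differed between the groups. Summed fibroblast markers went from 519 to 709 CPM in controls to 2575 to 3036 in K5-RANKL (4 of 5 rose), basal and squamous markers from 88.5 to 92.0 up to 324 to 706 (4 of 4 tested rose) and immune markers from 171 to 185 up to 355 to 375 (6 of 8 tested rose). Myoepithelial markers went from 353 to 364 down to 261 to 295 CPM (4 of 5 fell), although as a share of counts they went up from a mean of 0.0254% to 0.0390%. Duct markers were mixed, with 3 of 6 higher and 3 lower and sums of 677 to 720 CPM in controls and 917 to 964 in K5-RANKL. Lymph node markers went from 97.9 to 120 up to 289 to 316 CPM, with 3 of 3 tested higher and Ccl21a at 0 throughout. Endothelial markers summed to 86.9 to 100.2 CPM in controls and 104 to 110 in K5-RANKL, with 2 of 3 higher and 1 lower. Skeletal muscle markers summed to 8.83 to 87.2 CPM in controls and 109.6 to 170.1 in K5-RANKL, and adipocyte markers to 254 to 437 and 285 to 385; the lowest adjusted p in edgeR was 0.118 (Mylpf) and 0.0706 (Lep). The part of these differences in cell markers in the levels of the secretory transcripts was not tested.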

How the data were processed

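RNA was purified from pooled glands and 250 ng per library was made into stranded mRNA libraries, per the labels' protocols. The authors deposited raw counts per gene. Reads were aligned with STAR to mm10, per the submitters' processing notes. The sources used here do not give the STAR version, counting tool, annotation, read length or strand setting. Of 24054 rows, 23495 matched RefSeq (GRCm38.p6) by Entrez identifier. Spt1, which had no identifier, was matched through a RefSeq synonym. All count columns were used, grouped by the genotype label.

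The genes, the lists and the rule for named genes were chosen with earlier results of these data known. The rule names all 10 secretory genes, up to 3 genes of each related list by smallest p and up to 2 called against its majority, the 5 genes most like the set, and up to 6 called neighbours. Genes were filtered with filterByExpr (minimum count 10), scaled by TMM and compared by a two-sided quasi-likelihood F-test in edgeR, fitted robustly, with Benjamini-Hochberg adjustment over 14044 genes and a threshold of 0.05; SE is the absolute log2 fold change over the square root of F. The fit was tested on simulated data. A share of counts for 1 library had a 95% Wilson interval of at most 0.0238 percentage points either side, which covers counting error only. Alternatives were RLE, upper-quartile and library-total scaling, TMM without the 10 genes, no filter, at least 50 counts in 3 libraries, DESeq2, limma voom and leaving out each library. Software was edgeR 4.0.16, DESeq2 1.42.0 and limma 3.58.1 under R 4.3.3.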

Additional observations from a re-analysis of the deposited data

How the results depend on the processing

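Of 126 fold changes of the 9 genes under 14 alternatives each, 121 kept their direction and call and 5 kept the direction only. Smgc stood at -0.14 by library totals. Mucl1 lay between 6.41 and 9.48 when 1 library was left out, and lost its call in 4 of those 6 fits. Genes called numbered 11733 higher and 698 lower by library totals, against 4799 and 4505 with TMM. By library totals 6 granular duct genes were higher and 2 lower, and 1 acinar gene was higher. In the granular duct list 1 gene was called higher with DESeq2, without control 1 and without control 3. In the list of mucous companions 2 were lower with DESeq2, without control 3 and without K5-RANKL 2. Without a filter 5 other mucins were higher, and with at least 50 counts in 3 libraries 2 peroxide genes were higher, as fewer genes were tested. With Spt1 out of set and total, the share was 5.23% in controls and 6.30% in K5-RANKL. Leaving out 1 library gave 32.1% to 35.7% in controls and 19.6% to 22.5% in K5-RANKL. The cause of these shifts was not tested beyond what each setting changes by construction. A share outside mitochondrial genes was planned and not run, because the table holds 0 such genes. No paired analysis was possible because the labels give the libraries no shared numbers.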

Other observations

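Some genes were at 0 in all libraries of 1 group, and the examples here were chosen after their values were seen. Of 14044 genes tested, 56 had 0 counts in all 3 controls and 2 had 0 counts in all 3 K5-RANKL libraries. H2-Ea-ps, a class II histocompatibility gene that some inbred mouse strains do not express, had 0 counts in every control and 11.9, 10.1 and 11.2 CPM in K5-RANKL. H2-Q1, a class I histocompatibility gene, had 0 counts in every control and 6.30, 6.74 and 7.54 CPM in K5-RANKL. Both lie on chromosome 17, 10.4 Mb and 11.4 Mb from Dcpp3. Trim12a, on chromosome 7, had 9.12, 7.65 and 7.11 CPM in controls and 0 counts in every K5-RANKL library. The sources used here give the strain of neither group. Strain background and the transgene cannot be told apart in these libraries, for Dcpp3 and Mucl1 or for any other gene compared.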
